A study of Mus musculus with 20 samples.

Results

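The 33 genes described here encode the machinery that makes, senses, stores and exports cholesterol, and they were followed in bone marrow-derived macrophages (BMDMs) treated with fractions of bronchoalveolar lavage fluid (BALF). They were chosen by name and kept where the mean over the 20 libraries, whatever the group, was at least 3 CPM, a gene's share of the library scaled to a fixed total. By that rule 32 of 33 were kept, among 10640 entries at or above the limit of 78409 in all. The kept member nearest the limit was Mvk, at a mean of 5.54 CPM, and the one left out was Ch25h, at 1.65 CPM. The kept genes fall into 8 of the mevalonate branch, 11 of the sterol branch, 6 of SREBP control, 4 of LXR signalling and efflux, and 3 of storage and lysosomal export.

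The study asked how airway extracellular vesicles and proteins from mice with and without RNY1, a small non-coding Y RNA, act on macrophages. All BMDMs came from bone marrow of female C57BL/6J mice, which carry RNY1, so the genotype in a group name is that of the BALF donors and the deleted gene cannot serve as a check of the labels. Cells were differentiated with L929-conditioned medium, used on day 7 at 200000 cells per well, washed and moved to serum-free Opti-MEM in every group, PBS included. EVFx is the vesicle-enriched size exclusion pool, given at 35000000 particles/µL, and ProteinFx is the later, protein-enriched pool, given at 0.75 µg/µL, so the fractions were matched between genotypes within a fraction but not with each other. Donors were ovalbumin-challenged RNY1+/+ mice or RNY1-/- mice made by CRISPR deletion, and the fractions were kept at 4 °C for 5 days. The groups were PBS, RNY1+/+ EVFx, RNY1-/- EVFx, RNY1+/+ ProteinFx and RNY1-/- ProteinFx, with 4 libraries each. No source states if the 4 libraries in each group stem from different wells, mice or lavage pools, so p-values measure the spread between these libraries, which may be technical. The treatment time is not given in the sources used here.

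Cells build cholesterol from acetyl-CoA. The mevalonate branch makes farnesyl diphosphate, and the sterol branch joins it into squalene, closes the ring and trims lanosterol to cholesterol. SREBP2, the product of Srebf2, is held in the endoplasmic reticulum with its escort Scap by the Insig proteins while sterol is plentiful, and is released to switch on synthesis genes when sterol is short. LXR receptors respond to oxysterols in the other direction and switch on the exporters Abca1 and Abcg1 and the ubiquitin ligase Mylip, which removes lipoprotein receptors. Macrophages take in much cholesterol with debris, vesicles and lipoproteins, pass it out of the lysosome through Npc2 and Npc1, and store the excess as ester through Soat1.

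Start-site sequences are shown for members at both ends of this regulation, because SREBP2 acts at sterol regulatory elements (SREs) that work next to CCAAT boxes. RefSeq windows of 300 bases, 250 before to 50 after the start on GRCm38.p6, were found for 26 of the 32 kept members, in 34 windows. The 4 below are each on the strand of the gene, 5′ to 3′, at chr13:119690101-119690400 for Hmgcs1, chr8:122443373-122443672 for Mvd, chr1:169969156-169969455 for Hsd17b7 and chr4:53159846-53160145 for Abca1. Capitals mark the SRE, searched as TCACNCCAC, and the CCAAT box, searched as CCAAT, each on either strand, so that ATTGG is a CCAAT box on the other strand.
Hmgcs1: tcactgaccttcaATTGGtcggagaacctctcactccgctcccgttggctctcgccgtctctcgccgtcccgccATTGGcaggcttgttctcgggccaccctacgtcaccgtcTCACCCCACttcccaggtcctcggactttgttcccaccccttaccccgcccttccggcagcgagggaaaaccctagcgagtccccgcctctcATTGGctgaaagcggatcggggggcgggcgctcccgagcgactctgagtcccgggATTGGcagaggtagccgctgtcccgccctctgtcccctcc
Mvd: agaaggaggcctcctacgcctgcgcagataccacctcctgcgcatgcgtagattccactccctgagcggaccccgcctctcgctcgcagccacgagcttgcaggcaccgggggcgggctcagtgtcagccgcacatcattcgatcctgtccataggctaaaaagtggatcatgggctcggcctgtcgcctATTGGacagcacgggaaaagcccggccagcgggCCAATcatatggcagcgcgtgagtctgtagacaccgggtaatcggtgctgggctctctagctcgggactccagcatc
Hsd17b7: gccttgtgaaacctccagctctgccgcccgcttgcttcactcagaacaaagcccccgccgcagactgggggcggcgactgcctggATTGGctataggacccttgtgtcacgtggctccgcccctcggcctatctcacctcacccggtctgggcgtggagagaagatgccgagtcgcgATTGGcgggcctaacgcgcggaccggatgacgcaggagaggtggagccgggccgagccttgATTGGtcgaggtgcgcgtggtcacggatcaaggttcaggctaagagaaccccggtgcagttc
Abca1: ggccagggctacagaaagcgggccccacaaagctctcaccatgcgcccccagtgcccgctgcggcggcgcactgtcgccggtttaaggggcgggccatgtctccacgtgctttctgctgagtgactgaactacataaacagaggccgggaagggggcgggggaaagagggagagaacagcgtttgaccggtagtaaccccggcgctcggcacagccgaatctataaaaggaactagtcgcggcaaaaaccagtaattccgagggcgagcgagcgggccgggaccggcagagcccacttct

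Hmgcs1 was the 1 matched member with this form of the SRE in the window, 137 bases before the start (position -137), against 1.24% of 32851 mouse windows of the same length. CCAAT boxes were more widespread, in 23 of the 34 member windows (67.6%) against 37.4% of all windows, and 14 of 16 matched synthesis members had one in their first window. Counting any window, 15 of 16 matched synthesis members and 7 of 10 other matched members had one. Mvd and Hsd17b7 held CCAAT boxes without the SRE, and Abca1 held neither. Mylip, also switched on by LXR, held CCAAT boxes, and Acat2, a synthesis gene, held none. The LXR element was searched only as an exact direct repeat of AGGTCA with 4 bases between (DR4), on either strand. This exact form was in no member window and in 0.0152% of all windows (5 of 32851). So rare a form would hardly be met in 34 windows, and forms that depart from it by a base were not searched. Its absence does not say that a member, Abca1 included, lacks an LXR element in its window. The SRE, CCAAT and DR4 results are matches of letters in short windows and say nothing of binding.

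Total counts per library ran from 2510005 to 8277366. PBS replicate 3 stood apart from the other PBS libraries, and the RNY1-/- ProteinFx libraries formed 2 pairs, replicates 1 and 2 and replicates 3 and 4, so the counts and calls that change without PBS replicate 3, or with either pair alone, are given beside the comparisons. All 8 macrophage markers were over 3 counts in every group, with a summed level of 9880 to 13400 CPM with PBS and 8540 to 11600 CPM over the treated groups. Neutrophil markers summed to 10.3 to 26.2 CPM with PBS and 3.47 to 10.2 CPM over the treated groups, while Epx of eosinophils and Sftpc and Sftpa1 of airway epithelium were at 0 in every library. The summed markers reached at most 3.02 CPM for eosinophils, 3.22 CPM for lymphocytes, 19.5 CPM for epithelium, 0.35 CPM for erythroid cells and 42.2 CPM for fibroblasts. Single macrophage markers moved with treatment, among them Adgre1, up by 1.57 to 2.14 against PBS in the treated groups, and Mrc1, which changed by -3.52 with RNY1+/+ EVFx and -2.74 with RNY1-/- EVFx, and their part in the results below was not tested. Across all genes tested, log2 fold changes also followed the GC content of the transcript, with a Spearman rho from -0.65 to 0.59 depending on the comparison, so values with trends in length and GC content removed are given where they differ. Scaling by total counts in place of TMM moved the median log2 fold change of all genes by -0.18 for RNY1+/+ EVFx, -0.24 for RNY1-/- EVFx, -0.17 for RNY1+/+ ProteinFx and -0.06 for RNY1-/- ProteinFx, each against PBS, and by 0.16 for the interaction described last. Counts of members with total counts as the scale are given without the shares over all genes. Levels below are CPM in replicates 1 to 4, in that order, and differences are log2 fold changes with their standard errors (SE) from edgeR, with adjusted p over all genes tested. Reads that fit several genes were shared among them, so values of Idi1, Soat1, Fdps, Tm7sf2, Fdft1, Insig1, Hmgcs1, Npc2, Acat2 and Ggps1, which carry such parts of counts in 8 to 14 libraries, are less certain. A gene rose or fell where the adjusted p was under 0.05, and was a differentially expressed gene (DEG) where the absolute log2 fold change was also above 1.

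RNY1+/+ EVFx raised most of the synthesis pathway. Of its 19 kept members 16 rose, 12 of them as DEGs, and 0 fell, with a median log2 fold change of 1.26 beside -0.03 over the 10797 genes tested. Over those genes 21.7% rose and 22.8% fell, and 8.24% were DEGs upward and 8.19% downward. In bulk libraries a smaller share of expressing cells and less RNA per cell cannot be told apart. All comparisons with PBS share the same 4 PBS libraries, so they are not independent of each other.

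In the mevalonate branch the largest rises were at its entry and at its decarboxylation step. Acat2, the thiolase that joins the first acetyl-CoA units, was at 12.1, 14.9, 16.7 and 14.1 CPM with PBS and at 70.8, 70.1, 65.2 and 80.4 CPM with RNY1+/+ EVFx. Mvd, which decarboxylates mevalonate diphosphate, went from 3.69, 4.79, 2.52 and 4.27 CPM to 27.4, 25.8, 27.6 and 36.1 CPM. Fdps, farnesyl diphosphate synthase, measured 52.2, 60.1, 43.5 and 50.4 CPM with PBS and 160, 159, 149 and 182 CPM with the vesicles. For each of the 3 genes every vesicle library lay above every PBS library. The log2 fold changes were 2.49 ± 0.12 for Acat2 (adjusted p = 6.7e-08), 3.08 ± 0.19 for Mvd (adjusted p = 3.6e-07) and 1.83 ± 0.12 for Fdps (adjusted p = 4e-07), or 5.62-fold, 8.46-fold and 3.56-fold. Hmgcs1, which makes HMG-CoA and carries the SRE shown above, rose by less, from 101, 138, 153 and 135 CPM to 221, 232, 212 and 226 CPM, a log2 fold change of 0.94 ± 0.12 (adjusted p = 0.00011). Pmvk, phosphomevalonate kinase, and Idi1, the isopentenyl diphosphate isomerase, each rose by 0.95, with overlapping groups. Mvk, mevalonate kinase, changed by 0.74 ± 0.29 (adjusted p = 0.0636), and rose without PBS replicate 2 (0.99, adjusted p = 0.0251) or 3 (0.50, adjusted p = 0.0476). Ggps1, which turns the pathway toward protein prenylation, rose by 0.41 ± 0.14 (adjusted p = 0.0327), and 5 of the 8 fits that left out 1 library, PBS replicate 1, 2 or 4 or RNY1+/+ EVFx replicate 2 or 3, lost that call at 0.33 to 0.40.

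The sterol branch rose over almost its whole length, with 9 of 11 members rising and all 9 as DEGs. Fdft1, squalene synthase, stood at 17, 25.3, 23.2 and 19.3 CPM with PBS and at 53.8, 48.2, 46.6 and 65.8 CPM with RNY1+/+ EVFx. Lss, which closes the ring to lanosterol, was at 6.56, 11.1, 11 and 11 CPM with PBS and at 42.9, 51.8, 43.6 and 54.8 CPM with the vesicles. Hsd17b7, a ketoreductase of sterol demethylation, moved from 9.63, 14.7, 18.5 and 16.2 CPM to 52.1, 61.3, 66.7 and 53.4 CPM. The groups did not overlap for any of these 3 genes, and the log2 fold changes were 1.51 ± 0.15 for Fdft1 (adjusted p = 1.5e-05), 2.45 ± 0.17 for Lss (adjusted p = 7.1e-07) and 2.16 ± 0.18 for Hsd17b7 (adjusted p = 2.9e-06). Sqle, squalene epoxidase and a rate-limiting enzyme of this branch, measured 100, 116, 188 and 140 CPM with PBS, the highest in replicate 3, and 294, 298, 293 and 271 CPM with the vesicles. It rose by 1.26 ± 0.17 (adjusted p = 0.00013). Cyp51 (lanosterol demethylase, 1.5), Msmo1 (methylsterol monooxygenase, 1.11), Nsdhl (sterol dehydrogenase, 1.61), Sc5d (a sterol desaturase, 1.46) and Dhcr7 (the reductase of the last step, 1.21) rose as DEGs too. Tm7sf2, a sterol reductase, changed by 0.40 (adjusted p = 0.305) and Ebp, a sterol isomerase, by -0.46 (adjusted p = 0.106). Without PBS replicate 3, Ebp fell by 0.64 (adjusted p = 0.00137), Mvk rose by 0.50 (adjusted p = 0.0476), and 17 in place of 13 kept members were DEGs.

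**Figure D1:**
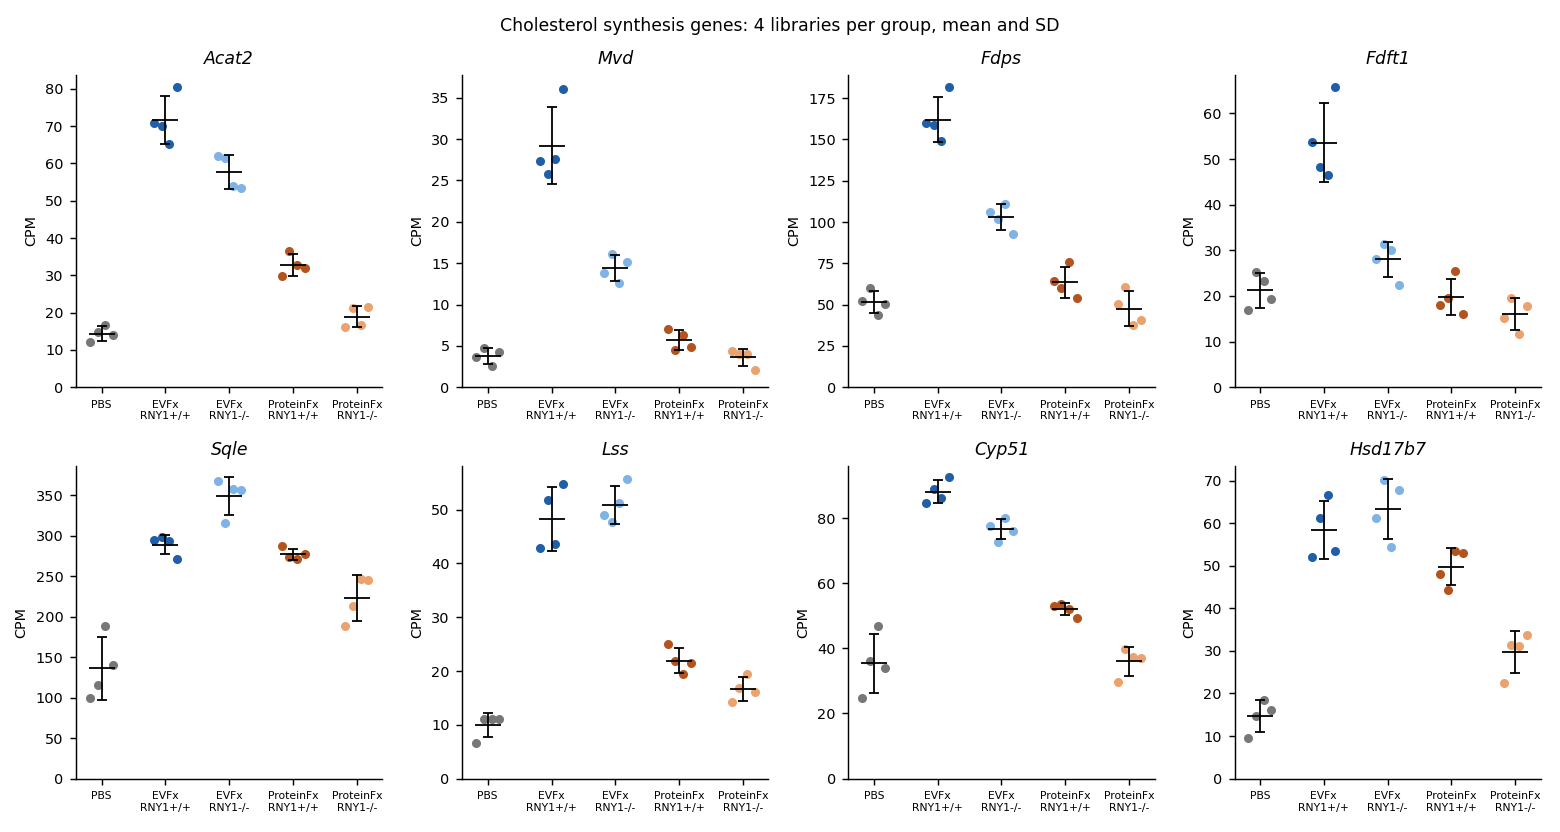
Levels of 8 synthesis genes in CPM (linear axis from 0) in the 5 groups, with dots for the 4 libraries and a line and bar for the mean ± SD. Acat2, Mvd, Fdft1, Lss and Hsd17b7 sit well above PBS in RNY1+/+ EVFx, where Mvd reaches 25.8 to 36.1 CPM against 2.52 to 4.79 CPM with PBS, and Acat2 and Hsd17b7 are lower in RNY1-/- ProteinFx than in RNY1+/+ ProteinFx.

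Among the SREBP control genes the feedback inhibitor rose and the escort fell. Insig1, itself an SREBP target that retains SREBP in the endoplasmic reticulum, was at 116, 148, 234 and 166 CPM with PBS and at 384, 426, 453 and 381 CPM with RNY1+/+ EVFx, a rise of 1.49 ± 0.19 (adjusted p = 7e-05). Scap went the other way, from 24.6, 24.6, 12.6 and 16.9 CPM to 8.40, 10.1, 7.41 and 11.4 CPM, and fell by 0.89 on the log2 scale (SE 0.22, adjusted p = 0.00765). Neither gene's groups overlapped. Stard4, a soluble sterol carrier, rose by 0.87 and Srebf1, which drives fatty acid genes, by 0.79 (adjusted p = 0.003). Srebf2 itself was at 39.8, 55.8, 27.2 and 38.3 CPM with PBS and at 54.3, 53.7, 47.9 and 61.7 CPM with the vesicles, so the groups overlapped. Its rise of 0.61 ± 0.18 (adjusted p = 0.0187) lost the call without RNY1+/+ EVFx replicate 4, at 0.55 (adjusted p = 0.053). Insig2, the other retention protein, changed by 0.19 (adjusted p = 0.346) and passed without PBS replicate 3 (0.32, adjusted p = 0.0296).

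The exporters moved down while synthesis moved up. Abca1, which loads cholesterol onto apolipoprotein A-I, stood at 465, 435, 482 and 455 CPM with PBS and at 226, 239, 266 and 258 CPM with RNY1+/+ EVFx. No vesicle library reached the PBS range, and Abca1 fell by 0.72 on the log2 scale (SE 0.09, adjusted p = 9.5e-05), to 0.608 of the PBS level. Abcg1, which passes cholesterol to high-density lipoprotein, was at 388, 393, 598 and 543 CPM with PBS and at 322, 331, 315 and 289 CPM with the vesicles. Its fall of 0.44 on the log2 scale (SE 0.15, adjusted p = 0.0351) was less firm, since the call was lost without PBS replicate 4 (-0.37) or without any 1 of the RNY1+/+ EVFx libraries (-0.46 to -0.39), and with trends in length and GC content removed (-0.42, adjusted p = 0.0581). Mylip, also an LXR target, rose in contrast, from 139, 143, 204 and 177 CPM to 221, 225, 245 and 219 CPM (0.63 ± 0.13, adjusted p = 0.00258). Nr1h2, the widely expressed LXR receptor, changed by -0.27 (adjusted p = 0.472), and fell without PBS replicate 3 (-0.50, adjusted p = 0.0286). Over the 32 kept members 21 rose and 4 fell, or 23 and 7 without that library, where 27.4% of 10734 genes rose and 28.9% fell. Of the storage and lysosomal genes, Soat1 fell by 0.38 on the log2 scale (adjusted p = 0.0105), from 504 to 629 CPM down to 360 to 407 CPM, while Npc1 (-0.20) and Npc2 (-0.19) did not pass. Npc2 fell without PBS replicate 3 (-0.36, adjusted p = 0.00623). Npc1 fell with DESeq2 (-0.20, adjusted p = 0.0353), with total counts (-0.38, adjusted p = 0.00365) and with the length and GC trends removed (-0.24, adjusted p = 0.0159).

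**Figure D2:**
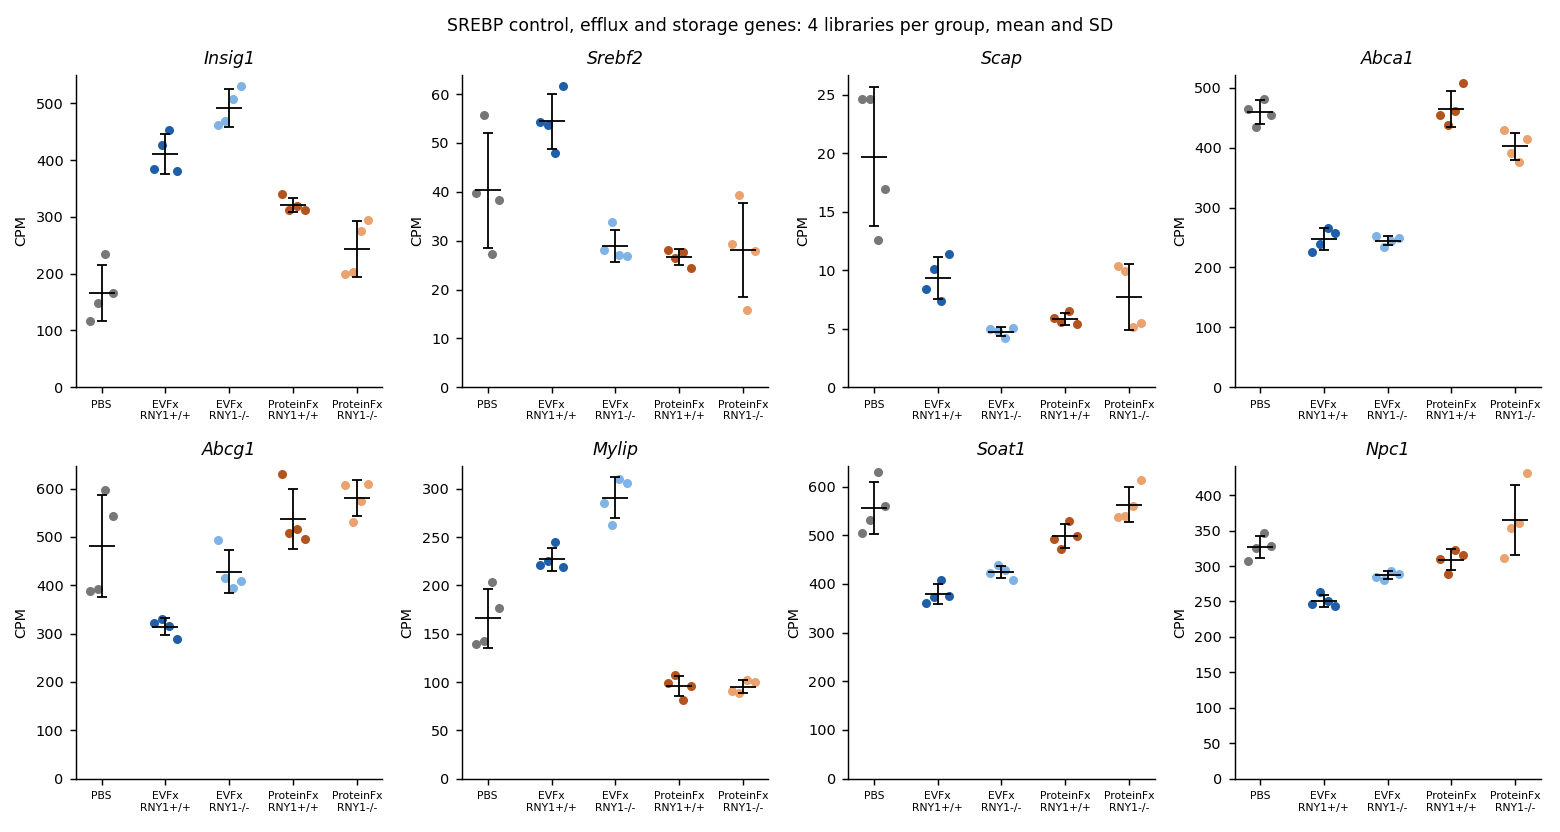
Levels of 8 control, efflux and storage genes in CPM (linear axis from 0) in the 5 groups, with dots for libraries and a line and bar for the mean ± SD. Insig1 is higher and Scap lower than PBS in all treated groups by mean, Abca1 is lower in both EVFx groups (226 to 266 CPM) than in PBS (435 to 482 CPM), and Mylip is higher in both EVFx groups and lower in both ProteinFx groups.

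Further genes of the same regulators, listed with earlier results of these data known, were read from the same fit. Of 10 fatty acid genes driven by SREBP1 that were tested in every comparison, 9 rose and 6 were DEGs, with a median of 1.12. Me1 (malic enzyme), the other gene of that list, was above 3 CPM through the EVFx groups alone and is left out of the counts. Acss2, which makes acetyl-CoA from acetate, was at 4.51, 4.63, 5.26 and 5.87 CPM with PBS and at 85.3, 89.5, 112 and 112 CPM with RNY1+/+ EVFx, a rise of 4.47 ± 0.16 (adjusted p = 9.9e-09). Scd1 (stearoyl-CoA desaturase, 2.98) and Fads2 (a fatty acid desaturase, 2.54) were also DEGs upward. Of 6 further LXR targets 1 rose and 4 fell, with a median of -0.85. Those that fell were Lpl (lipoprotein lipase, -1.25), Smpdl3a (a secreted phosphodiesterase, -1.0), Arl4c (-0.92) and Pltp (phospholipid transfer protein, -0.79), and Lpcat3, a phospholipid acyltransferase, rose by 0.55. Of 15 genes of SREBP processing and sterol handling 3 rose and 4 fell.

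RNY1-/- EVFx raised 14 of the 19 synthesis members against PBS, 10 of them as DEGs, and 1 fell. The median of the synthesis members was 1.23 beside -0.03 over 10729 genes, of which 27.6% rose, 30.7% fell, 9.01% were DEGs upward and 13.5% downward. Of the 32 kept members 13 were DEGs upward and 1 downward. With total counts as the scale the split was 10 and 3, and without PBS replicate 3 the number of DEGs was 17. In that fit 18 kept members rose and 8 fell, in place of 18 and 5, where 34.8% of 10669 genes rose and 35.6% fell, and Mvk (-0.61, adjusted p = 0.0332) and Tm7sf2 (-0.81, adjusted p = 0.00507) were among those that fell. Replicate numbers were taken to pair PBS with RNY1-/- EVFx libraries, though replicate 2 alone correlated best with its own number. With the number as a block the count stayed at 14 DEGs, while Dhcr7 (0.40, adjusted p = 0.0156) and Tm7sf2 (-0.59, adjusted p = 0.0467) also passed. The adjusted p without the block were 0.0828 and 0.163.

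Lss, Hsd17b7, Acat2 and Mvd had the largest log2 fold changes, each above 2. Acat2 reached 62.0, 61.4, 53.9 and 53.5 CPM and rose by 2.24 ± 0.12 (adjusted p = 1.2e-07). Lss reached 49.0, 47.8, 51.2 and 55.7 CPM and rose by 2.59 ± 0.17 (adjusted p = 3.3e-07), or 6.03-fold, and Hsd17b7 reached 61.2, 70.1, 54.4 and 67.8 CPM and rose by 2.35 (adjusted p = 1.2e-06). All of these libraries lay far above the PBS range. Mvd, at 13.8, 16.1, 12.6 and 15.1 CPM, rose by 2.13 ± 0.20 (adjusted p = 6.4e-06), and by 2.79 with trends in length and GC content removed. Sqle (1.60), Sc5d (1.54), Idi1 (1.47), Nsdhl (1.46), Cyp51 (1.36) and Fdps (1.23) were the other DEGs of synthesis. Fdft1 rose by 0.63 (adjusted p = 0.00354), from 17 to 25.3 CPM to 28.2, 31.4, 30.0 and 22.5 CPM. Ebp fell by 1.00 on the log2 scale (adjusted p = 0.00345), from 31.6, 29.0, 14 and 22.2 CPM to 12, 10.4, 10.1 and 8.58 CPM.

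Of the control and efflux genes, Insig1 was at 461, 468, 508 and 530 CPM, above every PBS library, and rose by 1.81 ± 0.19 (adjusted p = 1.3e-05). Insig2 (0.80) and Stard4 (1.12) also rose. Scap was at 4.99, 4.77, 4.19 and 5.05 CPM and fell by 1.80 on the log2 scale (adjusted p = 7.4e-05), or by 1.21 with the length and GC trends removed. Srebf2 was at 28.1, 33.8, 27.1 and 26.8 CPM, inside the PBS range but for replicates 3 and 4, and did not pass, at -0.24 (adjusted p = 0.283), a value that turned to 0.29 (adjusted p = 0.0363) with those trends removed. Without PBS replicate 3 it fell, by 0.37 on the log2 scale (adjusted p = 0.0232). Abca1 was at 252, 234, 245 and 250 CPM, again below every PBS library, and fell by 0.67 on the log2 scale (SE 0.09, adjusted p = 0.00013). Abcg1, at 494, 415, 395 and 409 CPM, overlapped PBS (0.07 ± 0.15, adjusted p = 0.7). Mylip, at 285, 263, 310 and 306 CPM, rose by 1.05 ± 0.14 (adjusted p = 8.4e-05). Nr1h2 fell by 0.96 on the log2 scale (adjusted p = 0.0161), a call lost without PBS replicate 2 (-0.74) or RNY1-/- EVFx replicate 1 (-0.89) and with the trends removed (-0.21). Npc2 fell by 0.65 on the log2 scale (adjusted p = 0.0129). Of the 10 fatty acid genes tested in every comparison 8 rose and 5 were DEGs, Acss2 by 4.4 and Scd1 by 2.96, and of the 6 further LXR targets 1 rose and 5 fell.

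RNY1+/+ ProteinFx raised synthesis less. Of the 19 synthesis members 13 rose, 6 of them as DEGs, and 1 fell as a DEG, with a median of 0.73 beside -0.03 over 10835 genes, of which 25.9% rose, 29.3% fell, 8.96% were DEGs upward and 12.4% downward. Over the 32 kept members 7 were DEGs upward and 2 downward, or 5 and 3 with total counts as the scale. By adjusted p alone 16 rose and 4 fell, and without PBS replicate 3 the split was 17 and 8, with 3 in place of 1 synthesis members falling, where 33.3% of 10807 genes rose and 35.3% fell. The synthesis genes added were Mvk (-0.73, adjusted p = 0.021) and Tm7sf2 (-0.89, adjusted p = 0.00162). Hsd17b7 had the largest rise, at 48.2, 44.4, 53.5 and 53.1 CPM, all above PBS (1.93 ± 0.18, adjusted p = 4.7e-06). Acat2 was at 29.8, 36.6, 32.8 and 31.9 CPM (1.35 ± 0.13, adjusted p = 9e-06) and Lss at 25.1, 21.8, 19.4 and 21.5 CPM (1.31 ± 0.18, adjusted p = 0.00012), again with no overlap. Sqle (1.2), Idi1 (1.17) and Sc5d (1.04) were the other DEGs upward, the last at 0.61 with the length and GC trends removed. Mvd, at 7.08, 4.56, 6.28 and 4.86 CPM, overlapped PBS and rose by 0.72 ± 0.25 (adjusted p = 0.0279), a call lost without PBS replicate 1 (0.70) or without RNY1+/+ ProteinFx replicate 1 (0.60) or 3 (0.69). Hmgcs1 rose by 0.57 (adjusted p = 0.00489) but not with the trends removed (0.12, adjusted p = 0.405). Ebp was the DEG downward, at 11.3, 8.62, 10.6 and 7.98 CPM (-1.17, adjusted p = 0.00189).

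Of the SREBP control genes Insig1 was at 340, 312, 320 and 312 CPM and rose by 1.12 (adjusted p = 0.00031), while Scap was at 5.93, 5.58, 6.53 and 5.38 CPM and fell by 1.58 on the log2 scale (adjusted p = 0.00018). Both were apart from PBS in every library. Srebf2, at 28.1, 26.4, 27.6 and 24.5 CPM, changed by -0.43 (adjusted p = 0.0672), and passed without PBS replicate 3 (-0.58, adjusted p = 0.00134). The fall in Abca1 seen with vesicles was not seen with the protein fraction: Abca1 was at 454, 438, 461 and 508 CPM, across the PBS range, and changed by 0.19 ± 0.10 (adjusted p = 0.127). Abcg1, at 630, 509, 517 and 495 CPM, changed by 0.33 (adjusted p = 0.0924) and passed without PBS replicate 3 (0.45, adjusted p = 0.00728). Mylip was at 98.7, 107, 81.2 and 96.2 CPM, below every PBS library, and fell by 0.62 on the log2 scale (adjusted p = 0.00355). Nr1h2 fell by 0.91 on the log2 scale (adjusted p = 0.0237), and this call was lost without PBS replicate 1 (-0.85) or 2 (-0.71), without RNY1+/+ ProteinFx replicate 2 (-0.91) or 3 (-0.78), and with the trends removed (-0.16). Soat1, Npc1 and Npc2 changed by -0.16 to 0.09 and did not pass, but Npc2 fell without PBS replicate 3 (-0.33, adjusted p = 0.00877). Of the 10 fatty acid genes tested 3 rose and 1 fell, Acss2 by 1.01 (9, 9.88, 8.80 and 8.68 CPM), and Fasn, fatty acid synthase, fell by 0.78 on the log2 scale. Among sterol handling genes Lipa, the lysosomal acid lipase, fell by 1.72 and Scarb1, a lipoprotein receptor, by 1.32 on the log2 scale, and Rnf139, a ubiquitin ligase of the endoplasmic reticulum, rose by 1.12.

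RNY1-/- ProteinFx moved the fewest members of the 4 treated groups. By adjusted p alone this rank did not hold with the replicate number as a block, as given below. Of the 19 synthesis members 5 rose and 0 fell, with a median of 0.25 beside -0.03 over 10855 genes, of which 16.7% rose, 19% fell, 6.31% were DEGs upward and 7.99% downward. Of the 32 kept members 6 rose and 2 fell, and 2 were DEGs. Without PBS replicate 3 the split was 12 and 6, where 25.1% of 10833 genes rose and 27.7% fell, as Acat2 (0.52), Idi1 (1.12), Sc5d (0.55), Insig2 (0.69), Stard4 (0.82) and Abcg1 (0.46) also rose and Tm7sf2 (-0.89), Ebp (-0.92), Srebf2 (-0.58) and Nr1h2 (-1.01) also fell. With replicates 1 and 2 of this group only, 1 rose (Hsd17b7, 0.90) and 1 fell (Mylip, -0.86), where 8.35% of 10935 genes rose and 5.99% fell, and with replicates 3 and 4 only 10 rose and 4 fell, where 19.7% of 10944 genes rose and 19.8% fell. Scap (-0.93, adjusted p = 0.0725), Lss (0.67), Sqle (0.59), Ggps1 (0.55), Nsdhl (0.61) and Insig1 (0.31) did not pass with replicates 1 and 2 alone, and all 6 passed with replicates 3 and 4 alone, Insig1 at 0.92 and Scap at -1.75. Hsd17b7 was the DEG upward, at 22.5, 31.5, 31.1 and 33.7 CPM, above PBS in all 4 libraries (1.08 ± 0.21, adjusted p = 0.00391, or 0.75 with the length and GC trends removed). Scap was the DEG downward, at 10.4, 9.93, 5.18 and 5.45 CPM (-1.24 ± 0.28, adjusted p = 0.00756, or -0.69 with the trends removed). Lss (0.80, adjusted p = 0.0126), Sqle (0.79, adjusted p = 0.0114) and Ggps1 (0.74, adjusted p = 0.005) rose, and Mylip fell by 0.73 on the log2 scale (adjusted p = 0.00413), at 90.7, 89.1, 102 and 99.9 CPM. Nsdhl rose by 0.61 (adjusted p = 0.0164), a call lost without PBS replicate 1 (0.57) or 4 (0.51). Insig1, at 199, 203, 275 and 295 CPM, rose by 0.63 (adjusted p = 0.0491) and lost the call without PBS replicate 1, 2 or 4 or RNY1-/- ProteinFx replicate 3 or 4, at 0.49 to 0.63. Acat2, at 16.1, 21.3, 16.7 and 21.4 CPM, just missed the threshold (0.46 ± 0.16, adjusted p = 0.0506). It rose with DESeq2 (0.48, adjusted p = 0.0415), the replicate block (0.48, adjusted p = 0.00632) and the trends removed (0.47, adjusted p = 0.0477). It also rose with all 20 libraries in the fit (0.46, adjusted p = 0.00509) and without RNY1-/- ProteinFx replicate 1 (0.55, adjusted p = 0.0355). With replicates 1 and 2 alone (0.41) or 3 and 4 alone (0.54) Acat2 did not pass. Abca1, at 429, 391, 376 and 414 CPM and below the PBS range, changed by -0.12 (adjusted p = 0.35) and Abcg1 by 0.34 (adjusted p = 0.106). The number of DEGs was 4 without PBS replicate 3 and 1 without PBS replicate 1 or RNY1-/- ProteinFx replicate 4. It was 0 with replicates 1 and 2 of this group only and 4 with replicates 3 and 4 only. With the replicate number as a block 14 kept members rose and 7 fell, where 28.8% of genes rose and 32.1% fell. RNY1+/+ ProteinFx had 15 and 4 against PBS with that block, where 22.8% of genes rose and 24.9% fell. With all 20 libraries in the fit 15 rose and 4 fell with RNY1-/- ProteinFx, where 24.6% of genes rose and 27.6% fell. The number of DEGs was 2 in either setting.

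**Figure D3:**
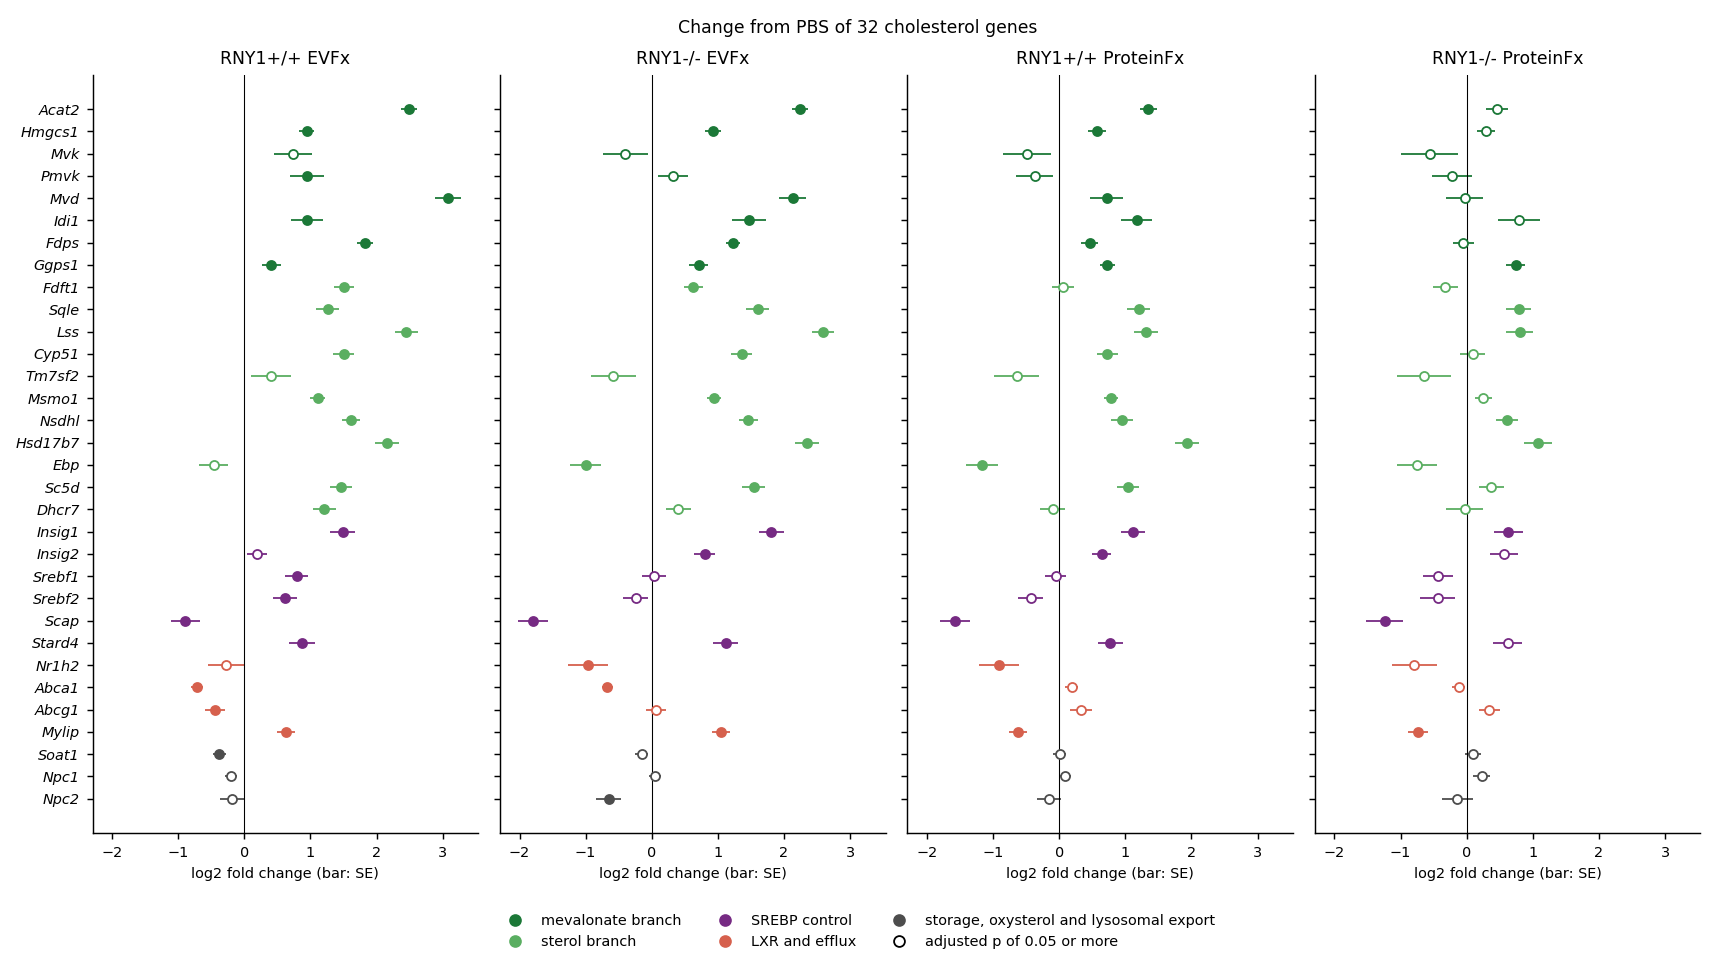
Log2 fold change from PBS (points, with bars of ± SE) of the kept members in the 4 treated groups, coloured by role and filled where the adjusted p was under 0.05. Synthesis genes lie mostly to the right in both EVFx panels, up to 3.08 for Mvd and 2.59 for Lss, and closer to 0 with RNY1-/- ProteinFx, where the highest is Hsd17b7 at 1.08, while Scap lies to the left in all 4 panels.

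Set directly against RNY1+/+ EVFx, RNY1+/+ ProteinFx had lower synthesis transcripts and higher exporter transcripts, with the doses of the fractions on different scales. Of the 19 synthesis members 15 were lower, 9 of them as DEGs, and 1 was higher, with a median of -0.76 beside -0.02 over 10444 genes, of which 31.1% were higher, 32.2% lower, 6.71% DEGs upward and 6.82% downward. Mvd differed most, by -2.35 ± 0.16 (adjusted p = 2.4e-08), or 0.196 of the vesicle level, and then Fdft1 (-1.46), Fdps (-1.36), Pmvk (-1.32), Dhcr7 (-1.30), Mvk (-1.22), Acat2 and Lss (each -1.14) and Tm7sf2 (-1.03). Sqle (-0.06), Hsd17b7 (-0.22) and Idi1 (0.22) did not pass. Srebf2 was lower by 1.04 ± 0.10 (adjusted p = 5.5e-07), at 28.1, 26.4, 27.6 and 24.5 CPM against 47.9 to 61.7 CPM, and Mylip was lower by 1.25 ± 0.09 (adjusted p = 3.8e-08). Abca1 was higher by 0.91 ± 0.09 (adjusted p = 6.2e-07) and Abcg1 by 0.77 ± 0.09 (adjusted p = 4.7e-06), and none of the 4 protein-fraction libraries overlapped the vesicle libraries for either exporter. So the exporters and Mylip, all LXR targets, differed in opposite directions between the fractions. Of the 10 fatty acid genes tested in every comparison 9 were lower and 0 higher, Acss2 by 3.45 on the log2 scale. With the length and GC trends removed, 7 in place of 11 kept members were DEGs, all downward, where 26.4% of 10122 genes were higher, 28.4% lower, 5.65% DEGs upward and 4.49% downward.

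Within EVFx the donor genotype changed levels by small amounts in both directions. Of the 32 kept members 10 were higher and 14 lower with RNY1-/- EVFx than with RNY1+/+ EVFx, beside 25.5% higher and 26.6% lower of 10321 genes, and with total counts as the scale the split was 7 and 16. Mvk was the single DEG, at 8.53, 9.88, 7.61 and 11.2 CPM with RNY1+/+ EVFx and at 4.60, 4.77, 2.71 and 3.87 CPM with RNY1-/- EVFx (-1.12 ± 0.19, adjusted p = 0.00054), against 0.378% of genes as DEGs upward and 1.98% downward. No library of 1 genotype reached the other's range. The count of DEGs was 3 without RNY1+/+ EVFx replicate 2 and 2 without RNY1-/- EVFx replicate 1 or 2, and 3 with total counts.

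Within the synthesis pathway 9 members were lower and 3 higher. Mvd was lower, at 12.6 to 16.1 CPM against 25.8 to 36.1 CPM (-0.95 ± 0.13, adjusted p = 0.00023), as were Fdft1, at 22.5 to 31.4 CPM against 46.6 to 65.8 CPM (-0.88 ± 0.12, adjusted p = 0.00023), and Fdps, at 93.0 to 111 CPM against 149 to 182 CPM (-0.59 ± 0.08, adjusted p = 0.00022). The genotypes did not overlap for these genes. Tm7sf2 (-0.97), Dhcr7 (-0.79), Pmvk (-0.64) and Ebp (-0.53) were lower too. Acat2 was lower by 0.24 ± 0.08 (adjusted p = 0.0253), a call lost without RNY1-/- EVFx replicate 3 (-0.22) or 4 (-0.24). Idi1 (0.52, adjusted p = 0.00142) and Sqle (0.34, adjusted p = 0.0024) were higher, as was Ggps1 (0.31), though not with length and GC trends removed (-0.04) nor in 6 of the 8 fits without 1 library (each but RNY1+/+ EVFx replicate 3 and RNY1-/- EVFx replicate 2, at 0.22 to 0.33). Lss (0.14), Hsd17b7 (0.20), Sc5d (0.08), Hmgcs1 (-0.01), Cyp51 (-0.13) and Msmo1 (-0.16) did not pass. With all 20 libraries in the fit Acat2, Idi1 (adjusted p = 0.0616), Sqle (adjusted p = 0.05), Ggps1, Ebp, Insig1 (adjusted p = 0.0993), Stard4, Nr1h2 and Npc2 missed the threshold in this comparison. Of the control genes Srebf2 (-0.84, adjusted p = 0.0002), Scap (-0.91) and Srebf1 (-0.75) were lower, and Insig1 (0.33) and Insig2 (0.62) were higher. Abcg1 was higher by 0.52 ± 0.08 (adjusted p = 0.0004), at 395 to 494 CPM against 289 to 331 CPM, and Mylip by 0.43 (adjusted p = 0.00104), whereas Abca1 differed by 0.06 ± 0.07 (adjusted p = 0.533).

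These directions went with the GC content of the transcripts. Over all genes the rho of log2 fold change with GC content was -0.65 in this comparison. Of 14 kept members over 50% GC (50.6% to 60.6%) 13 were lower and 1, Abcg1, was higher, with a median of -0.77, and of 18 members at or under 50% (40.1% to 49.6%) 9 were higher and 1 lower, with a median of 0.22. With the trends removed 6 members were higher and 12 lower, where 16.8% of 10019 genes were higher and 16.3% lower. The medians of the GC classes were then -0.39 and -0.03, and no member was a DEG (0.599% of genes upward, 0.359% downward). Fdft1 (-0.66), Mvk (-0.65), Fdps (-0.42), Srebf2 (-0.40) and Mvd (-0.39) were still lower and Abcg1 (0.71), Mylip (0.53), Insig1 (0.36) and Sqle (0.34) still higher. The call was lost with the sign kept for 7 members. Among them were Acat2 (-0.13, adjusted p = 0.18), Pmvk (-0.16), Scap (-0.40, adjusted p = 0.0601) and Srebf1 (-0.27, adjusted p = 0.0502). Hmgcs1 (-0.22, adjusted p = 0.0203), Cyp51 (-0.24, adjusted p = 0.0155) and Msmo1 (-0.30, adjusted p = 0.00603) passed as lower once the trends were removed. What set the trend with GC content was not tested.

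**Figure D4:**
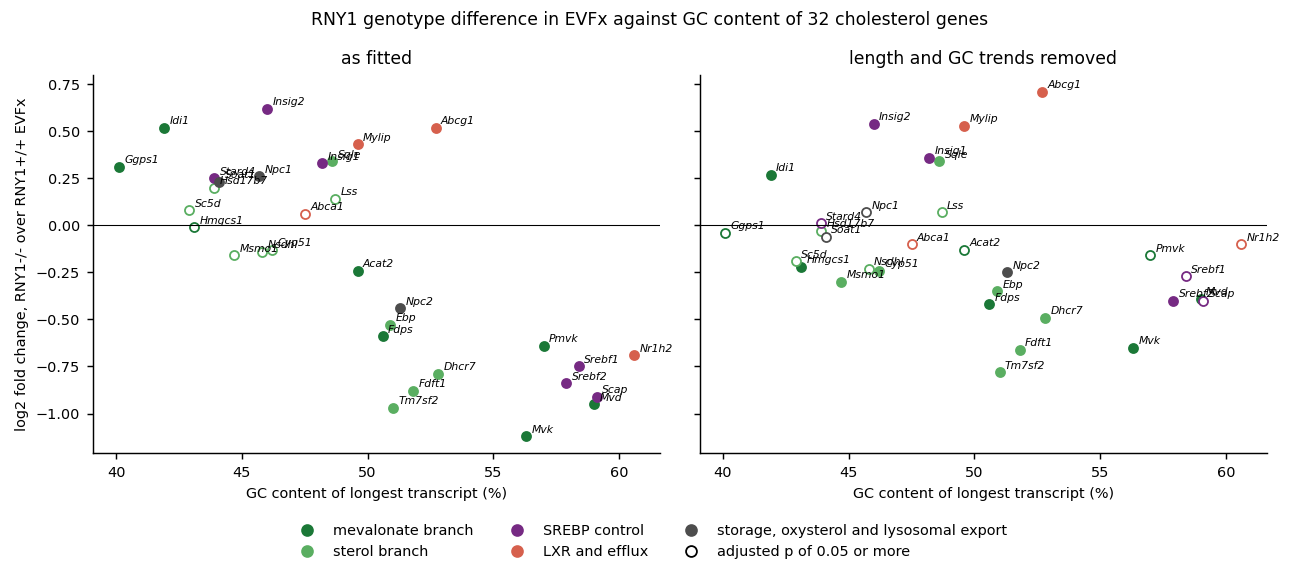
Log2 fold change of RNY1-/- EVFx over RNY1+/+ EVFx for the kept members against the GC content of the longest transcript in percent, as fitted and with trends in length and GC content removed. In the fit as made members over 50% GC lie mostly below 0 (13 of 14 lower), and with the trends removed their median moves from -0.77 to -0.39.

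Within ProteinFx the donor genotype lowered part of the synthesis pathway. Of the 32 kept members 0 were higher and 5 lower, all 5 of them among the 19 synthesis genes, whose median was -0.38 beside 0.02 over 10471 genes, of which 2.2% were higher and 3.37% lower. Acat2 was at 29.8, 36.6, 32.8 and 31.9 CPM with RNY1+/+ ProteinFx and at 16.1, 21.3, 16.7 and 21.4 CPM with RNY1-/- ProteinFx, lower by 0.87 on the log2 scale (-0.87 ± 0.14, adjusted p = 0.00315). Hsd17b7 was lower by 0.84 (-0.84 ± 0.15, adjusted p = 0.00534), at 22.5 to 33.7 CPM against 44.4 to 53.5 CPM. Sc5d was at 95.5, 98.3, 88.0 and 92.3 CPM against 53.7, 63.1, 68.9 and 67.2 CPM (-0.66 ± 0.12, adjusted p = 0.00558), and Cyp51 at 53.0, 53.5, 52.0 and 49.4 CPM against 29.7, 39.7, 37.5 and 37.1 CPM (-0.62 ± 0.12, adjusted p = 0.0095). The genotypes did not overlap for any of these 4 genes. Msmo1, at 238, 223, 250 and 212 CPM against 169, 204, 147 and 167 CPM, was lower by 0.51 on the log2 scale (-0.51 ± 0.11, adjusted p = 0.0153), and the call was lost without RNY1+/+ ProteinFx replicate 1 (-0.50, adjusted p = 0.0531). By edgeR 13 of the 32 had an unadjusted p under 0.05, and 0 were DEGs by edgeR or DESeq2, against 0.659% of genes upward and 1.17% downward. Lss (-0.51, adjusted p = 0.0691), Fdps (-0.49, adjusted p = 0.0741), Sqle (-0.40, adjusted p = 0.0761) and Insig1 (-0.48, adjusted p = 0.0838) missed the threshold. With the length and GC trends removed 9 kept members were lower, Lss, Fdps, Sqle and Mvd in addition. The share of all genes lower in that setting is not given here, so nothing is read from the larger count. Against RNY1+/+ ProteinFx the pair of replicates 1 and 2 alone gave -0.93 for Acat2, -1.01 for Hsd17b7 and -0.81 for Sc5d, and the pair of replicates 3 and 4 gave -0.79, -0.65 and -0.50. The pairs were farther apart for Idi1 (-0.86 and 0.04), Insig1 (-0.81 and -0.20), Sqle (-0.60 and -0.21) and Ebp (0.79 and -0.16), where the value of replicates 1 and 2 passed and that of replicates 3 and 4 did not. In all 3 members were higher and 11 lower with replicates 1 and 2 only, where 13% of 10482 genes were higher and 14.7% lower, and 0 were higher and 7 lower with replicates 3 and 4 only, where 3.69% of 10393 genes were higher and 4.65% lower. Abca1 (-0.30, adjusted p = 0.122), Abcg1 (0.03) and Mylip (-0.09) did not pass.

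**Figure D5:**
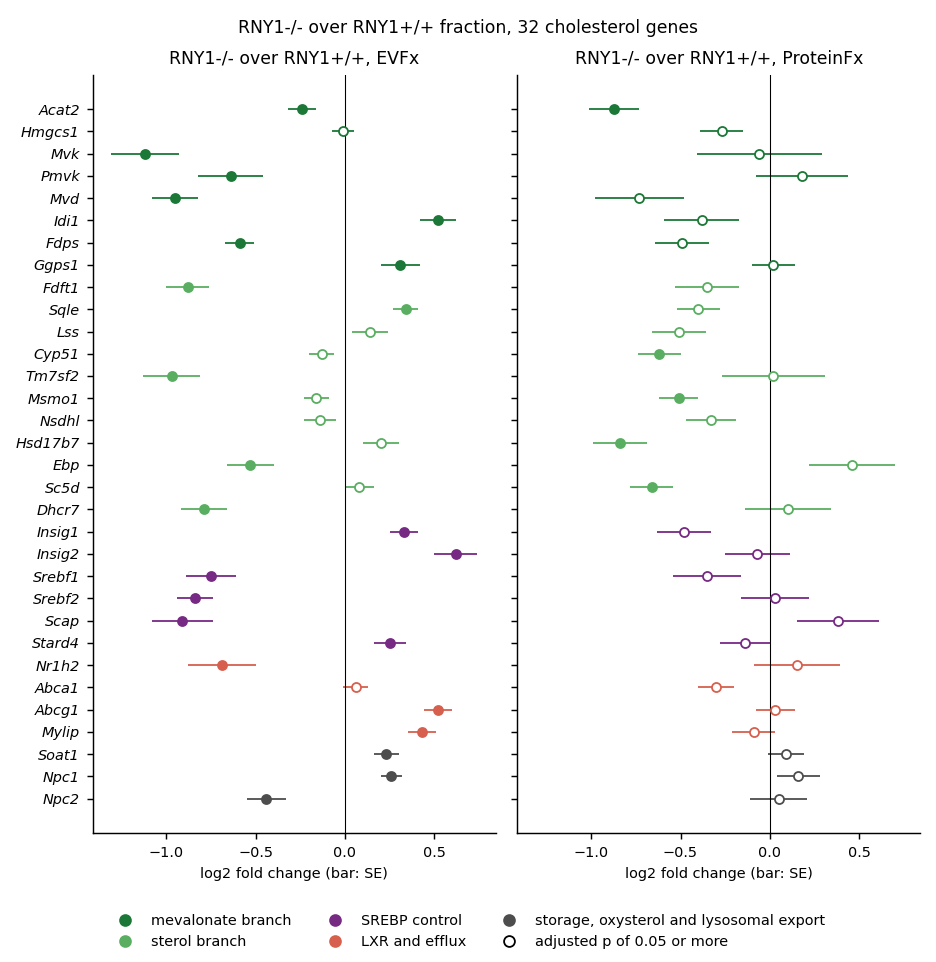
Log2 fold change of RNY1-/- over RNY1+/+ donors (points, with bars of ± SE) for the kept members within EVFx and within ProteinFx, coloured by role and filled where the adjusted p was under 0.05. Within ProteinFx the 5 filled points, from Acat2 at -0.87 to Msmo1 at -0.51, are synthesis genes to the left of 0, and within EVFx filled points lie on both sides, from Mvk at -1.12 to Insig2 at 0.62.

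Whether the genotype effects differ between fractions was asked with an interaction term fitted to 16 libraries, the log2 fold change in ProteinFx minus that in EVFx. It passed for 21 of the 32 kept members, 8 above 0 and 13 below, where 16.8% of 10445 genes were above and 16.2% below, and the split was 10 and 9 with total counts as the scale. Among those below 0 were enzymes from both branches, Hsd17b7 (-1.05, adjusted p = 0.00207), Idi1 (-0.92), Sqle (-0.75), Sc5d (-0.74), Lss (-0.66), Acat2 (-0.63), Cyp51 (-0.49) and Msmo1 (-0.35), together with Insig1 (-0.82), Insig2 (-0.70), Mylip (-0.52), Abcg1 (-0.49) and Abca1 (-0.36). With total counts Abca1 (-0.20) and Abcg1 (-0.34, adjusted p = 0.058) did not pass. Those above 0 were Scap (1.29, adjusted p = 0.0051), Mvk (1.07), Tm7sf2 and Ebp (each 1.00), Dhcr7 (0.91), Srebf2 (0.88), Nr1h2 (0.84) and Pmvk (0.83). All 8 of these had transcripts of 50.9% to 60.6% GC, and of the 13 below 0 all but Abcg1 (52.7%) had 41.9% to 49.6%. Over all genes the rho with GC content was 0.59. With the trends removed 13 members passed, 2 above 0 (Ebp at 0.79 and Scap at 0.74) and 11 below (Acat2, Idi1, Sqle, Lss, Cyp51, Hsd17b7, Sc5d, Insig1, Insig2, Abcg1 and Mylip), where 10.7% of 10119 genes were above and 10.4% below. With the replicate number as a block 19 members passed, and Mvk (adjusted p = 0.0562) and Pmvk (adjusted p = 0.0576) did not. In that fit 16.4% of genes were above 0 and 16.8% below. The count was 13 without RNY1-/- ProteinFx replicate 1, where 11.2% of genes were above and 9.33% below. It was at most 23, without RNY1-/- ProteinFx replicate 4, where 21.5% of genes were above and 19% below.

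Ch25h, which makes an oxysterol that activates LXR and restrains SREBP, was too low to test by the same rule. It was at 0.229 to 1.84 CPM with PBS, 0.121 to 1.18 CPM over the EVFx libraries and 1.2 to 1.82 CPM with RNY1-/- ProteinFx. With RNY1+/+ ProteinFx it was at 1.53, 7.10, 2.26 and 7.63 CPM, the highest values of the series in replicates 2 and 4.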

How the data were processed

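The 20 sequenced libraries were 3′ libraries of BMDM RNA with unique molecular identifiers. Per the methods and the submitters' processing notes, the authors trimmed reads with fastp 0.24.0, aligned them with STAR 2.7.11 to GRCm39, collapsed identifiers, and counted reads over exons and 3′ ends by strand with featureCounts of Subread 2.1.1, sharing reads that map to several genes. The annotation release is not given in the sources used here. The deposited table holds these estimated counts, and beside them the deposited CPM, which equalled count over library total to within 4.7e-06.

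Counts were rounded to whole numbers and tested with edgeR 4.0.16 (quasi-likelihood test, TMM scaling) in R 4.3.3, with the 8 libraries of a comparison in each fit and 16 in the interaction. Genes passed filterByExpr and a mean of 3 CPM over the fitted libraries, and p-values were adjusted over all genes tested (Benjamini-Hochberg). SE was the absolute log2 fold change divided by the root of the F statistic. Alternatives were DESeq2 1.42.0, total-count scaling, filterByExpr alone, the replicate number as a block, trends in transcript length and GC content removed (spline with 4 degrees of freedom, longest GENCODE vM21 transcript, GRCm38), all 20 libraries in the fit, adjusted p alone, and each library left out. The script was tested on simulated counts. Library totals were 2510005 to 8277366, and the mean squared difference between libraries of a group was 2.46 to 39.2 times that of counting alone.

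Over 40 pairs of same-numbered libraries the deviations from group means correlated from -0.415 to 0.656, and 21 pairs were over 0.1. All 4 were over 0.1 for PBS with RNY1-/- EVFx (0.14 to 0.393) and for RNY1-/- EVFx with RNY1-/- ProteinFx (0.218 to 0.416), so numbers were taken to pair there, as seen in the data. Best with its own number was replicate 2 alone in the first of these, and replicates 2, 3 and 4 in the second, so pairing is not established. PBS with RNY1-/- ProteinFx was higher for numbers 1 to 3 (0.527 to 0.656) but at 0.023 for number 4, and was not taken to pair. RNY1-/- EVFx and RNY1-/- ProteinFx meet only in the interaction.

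By the rule for named genes, any kept member could be named with values in its role class, and so could genes of the 3 further lists (fatty acid genes of SREBP1, further LXR targets, and SREBP processing and sterol handling). Members, lists and tests were chosen with earlier results of these data known. Promoter windows and their sequences came from RefSeq on GRCm38.p6. Ch25h was described without a test.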

Additional observations from a re-analysis of the deposited data

Results flagged for a closer look

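In 8 of the 160 groups of 4 libraries formed by the kept members and the treatment groups, 1 library lay far from the other 3 by Dixon's 95% criterion, and chance alone gives about 1 in 20. For low genes these were Mvk in RNY1+/+ ProteinFx replicate 1 (5.74 CPM, others 3.12 to 3.55), Mvd in RNY1-/- ProteinFx replicate 4 (2.07 CPM, others 3.98 to 4.35), Lss in PBS replicate 1 (6.56 CPM, others 11 to 11.1) and Nr1h2 in RNY1-/- EVFx replicate 2 (9.08 CPM, others 6.04 to 6.23). Nsdhl stood apart in RNY1+/+ ProteinFx replicate 3 (30.2 CPM, others 22.0 to 22.8), and Stard4 in replicate 2 of both RNY1+/+ EVFx (57.2 CPM, others 45.9 to 47.7) and RNY1-/- EVFx (51.8 CPM, others 57.7 to 57.9). Abcg1 was high in RNY1+/+ ProteinFx replicate 1 (630 CPM, others 495 to 517).

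The donor genotype effect differed between fractions by edgeR's interaction test for 21 members, given as the log2 effect in ProteinFx minus that in EVFx. It was below 0 for the enzymes Hsd17b7 (-1.05), Idi1 (-0.92), Sqle (-0.75), Sc5d (-0.74), Lss (-0.66), Acat2 (-0.63), Cyp51 (-0.49) and Msmo1 (-0.35), for Insig1 (-0.82) and Insig2 (-0.70), and for the LXR targets Mylip (-0.52), Abcg1 (-0.49) and Abca1 (-0.36). It was above 0 for Scap (1.29), Mvk (1.07), Tm7sf2 (1.00), Ebp (1.00), Dhcr7 (0.91), Srebf2 (0.88), Nr1h2 (0.84) and Pmvk (0.83). In the fits that left out 1 of the 16 libraries, the call was lost in 12 for Mvk and Pmvk, 11 for Nr1h2, 10 for Msmo1, 7 for Insig2 and Abca1, 5 for Tm7sf2 and 3 for Dhcr7. With the replicate number as a block Mvk and Pmvk did not pass.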

How the results depend on the processing

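The numbers of DEGs among the kept members by DESeq2, with all 20 libraries in the fit and with filterByExpr alone were within 1.5 times those reported. Where the adjusted p alone decided, the counts were 25 for RNY1+/+ EVFx, 23 for RNY1-/- EVFx, 20 for RNY1+/+ ProteinFx and 8 for RNY1-/- ProteinFx against PBS, 24 and 5 for genotype within EVFx and ProteinFx, and 27 between fractions, since no fold change was asked for. With length and GC trends removed the counts were 0 for RNY1-/- ProteinFx against PBS, 0 for genotype within EVFx, 7 between fractions and 13 for the interaction. Total counts gave 3 for genotype within EVFx. With RNY1-/- ProteinFx replicates 1 and 2 only, the counts were 0 against PBS and 1 against RNY1+/+ ProteinFx, and with replicates 3 and 4 only 4 against PBS, with fewer samples in the fit. With each library left out the counts ran from 13 to 17, 12 to 17, 7 to 10 and 1 to 4 against PBS in the order above, from 1 to 3 and from 0 to 0 for genotype, from 9 to 11 between fractions and from 13 to 23 for the interaction.

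Removing the trends also turned the sign of 6 single values, none of which passed the test with both signs, and the cause was not tested: Srebf1 in RNY1+/+ ProteinFx against PBS (0.47), Srebf2 in RNY1-/- EVFx against PBS (0.29), Soat1 in RNY1+/+ ProteinFx against PBS (-0.33), Soat1 and Ggps1 for genotype within EVFx (-0.06 and -0.04) and Ggps1 between fractions (-0.07). Over 256 single values, removing the trends lost 26 calls and gained 20 without a change of sign. The 6 values that turned sign are not in these counts. Of those, Ggps1 in both comparisons and Soat1 within EVFx lost a call, and the other values gained one. Total counts lost 12 and gained 9, and DESeq2 lost 2 and gained 10. The block lost 5 and gained 16, of which 13 were for RNY1-/- ProteinFx against PBS. The fit on all 20 libraries lost 11, 9 of them for genotype within EVFx, and gained 17, the interaction aside.

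With the replicate block the numbers of DEGs were 14, 14, 9 and 2 against PBS, 1 and 0 for genotype, 11 between fractions and 19 for the interaction, all within 1.5 times the values without it. Numbers were taken to pair libraries of RNY1-/- EVFx with those of PBS, where the block changed no other call than Dhcr7 and Tm7sf2, and with those of RNY1-/- ProteinFx, which meet in the interaction, where it lost Mvk and Pmvk. A block with the trends removed as well, chosen after seeing the data, gave 0.30 for Srebf2 there. Elsewhere the libraries were taken to share a number only. Over all 40 pairs, those taken to pair included, 14 correlated best with their own number.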
